A study of Mus musculus with 10 samples.

Results

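The genes described here are 10 activity-regulated genes: Arc, Bdnf, the orphan nuclear receptors Nr4a1, Nr4a2 and Nr4a3, and the early response genes Ier2, Ier5, Btg2, Dusp1 and Klf4. They were taken by name from a deposited table of RNA metabolic rates that holds 8590 genes. Of the 10 genes, 9 were listed in it. Klf4, a zinc finger transcription factor, was not listed. Arc, which encodes a synaptic protein that drives AMPA receptor endocytosis, was listed with no estimate of any rate in any library, so 8 genes carried values.

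The rates came from cultures of mouse cortical neurons prepared at embryonic day 18 from animals of the strain FVB.129P2-Pde6b+ Tyrc-ch/AntJ, either wild type or Fmr1-KO, and kept to DIV 14 (days in vitro). Fmr1 encodes FMRP, the RNA-binding protein missing in fragile X syndrome. New RNA was labelled with 200 µM 5-ethynyluridine (5-EU) for 20 or 60 min in both genotypes, then biotinylated and pulled down. Each genotype therefore had 1 labelled library per time, 2 in all, and these 4 libraries are the ones with rates. The labels add 2 inputs and 1 unlabelled pull-down per genotype to reach 10 samples, and do not say whether the libraries are separate cultures, so the p-values below measure only the spread between these libraries. That spread includes the labelling time, except in fits with time as a block or a term. No stimulus is named in the labels, so the rates are those of unstimulated cultures as far as the labels go.

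The table gives 3 rates per gene and library (synthesis, processing and degradation), estimated by INSPEcT from new and total RNA and from intronic and exonic signal. Synthesis is the making of unspliced RNA, processing its conversion into mature RNA, and degradation the fraction of mature RNA lost per unit time. Neither a time unit, nor how the spike-ins were used, nor any scaling by transcript length is given in the sources used here, and the depth behind each rate is unknown.

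Fmr1 itself had degradation rates of 0.0774 and 0.0672 in wild type at 20 and 60 min, and of 2.58 and 2.66 in Fmr1-KO. Its synthesis rate was 0.810 and 0.692 against 2.06 and 1.56, so synthesis was not lower in the libraries labelled Fmr1-KO. The ratio of synthesis to degradation of Fmr1 stood at 10.5 and 10.3 in wild type and at 0.800 and 0.586 in Fmr1-KO. The median degradation rate over all genes was 0.111 in both wild-type libraries, 0.190 in Fmr1-KO at 20 min and 0.195 at 60 min, so each gene is read below against its library as well. At least 1 rate was listed for 4 of 12 neuron markers (Rbfox3, Slc17a6, Gad2 and Nefm), 3 of 8 astrocyte markers, 5 of 9 oligodendrocyte lineage markers, 4 of 6 dividing progenitor markers, 1 of 7 vascular and fibroblast markers and 0 of 6 microglial markers. The other neuron markers, Map2 and Tubb3 among them, had no rate, and the cell makeup of the cultures was not tested.

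Activity-regulated genes are transcribed within minutes of synaptic input, when calcium entry leads to phosphorylation of CREB and of serum response factor partners that already sit at their promoters. Their transcripts are as a rule short-lived, which lets the RNA level follow the stimulus, and AU-rich elements in the 3′ untranslated region (UTR) are a known route to rapid decay. BDNF is a secreted neurotrophin that acts through TrkB, and its gene uses several alternative promoters. The NR4A proteins are transcription factors that act without a classical ligand, Btg2 is an antiproliferative protein that binds the deadenylase complex, Dusp1 is a nuclear phosphatase of MAP kinases, and Ier2 and Ier5 are nuclear early response proteins.

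Promoters of the NR4A genes, Btg2 and Dusp1 are shown because they hold either the full CREB site or 4 copies of its core. The windows run from 250 bases before to 50 after the annotated start, 5′ to 3′ on the gene's strand, from RefSeq on GRCm38.p6. Capitals mark the full cAMP response element (CRE), TGACGTCA, and its core, TGACG or the complement CGTCA. They cover chr1:134079106-134079405, minus strand, for Btg2, chr2:57123954-57124253, minus strand, for Nr4a2, and chr4:48045055-48045354, plus strand, for Nr4a3. The window of Nr4a1 is chr15:101266596-101266895, plus strand, and that of Dusp1 is chr17:26508423-26508722, minus strand.
Nr4a1: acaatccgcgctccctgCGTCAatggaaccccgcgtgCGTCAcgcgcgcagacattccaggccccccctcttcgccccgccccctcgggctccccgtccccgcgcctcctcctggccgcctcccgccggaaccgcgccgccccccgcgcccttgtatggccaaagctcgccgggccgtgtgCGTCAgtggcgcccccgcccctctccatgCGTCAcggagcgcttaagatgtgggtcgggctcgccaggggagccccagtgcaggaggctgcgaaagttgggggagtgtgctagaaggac
Nr4a2: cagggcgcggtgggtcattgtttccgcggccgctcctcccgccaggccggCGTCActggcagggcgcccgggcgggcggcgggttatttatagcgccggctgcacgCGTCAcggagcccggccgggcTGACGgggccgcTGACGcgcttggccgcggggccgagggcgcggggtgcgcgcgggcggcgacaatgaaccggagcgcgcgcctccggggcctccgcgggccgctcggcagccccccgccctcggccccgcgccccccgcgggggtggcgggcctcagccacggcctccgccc
Nr4a3: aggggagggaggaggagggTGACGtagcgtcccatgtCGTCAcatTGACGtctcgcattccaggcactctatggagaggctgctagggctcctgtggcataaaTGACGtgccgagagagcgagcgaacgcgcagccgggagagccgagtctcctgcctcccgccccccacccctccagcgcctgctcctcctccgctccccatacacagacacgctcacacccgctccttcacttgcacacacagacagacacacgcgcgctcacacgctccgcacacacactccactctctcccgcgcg
Btg2: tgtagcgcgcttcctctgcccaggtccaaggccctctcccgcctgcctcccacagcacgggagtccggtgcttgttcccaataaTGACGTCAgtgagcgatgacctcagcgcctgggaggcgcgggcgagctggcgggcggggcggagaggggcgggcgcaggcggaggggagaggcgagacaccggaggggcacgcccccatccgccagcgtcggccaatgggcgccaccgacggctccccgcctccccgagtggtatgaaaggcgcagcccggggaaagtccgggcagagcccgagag
Dusp1: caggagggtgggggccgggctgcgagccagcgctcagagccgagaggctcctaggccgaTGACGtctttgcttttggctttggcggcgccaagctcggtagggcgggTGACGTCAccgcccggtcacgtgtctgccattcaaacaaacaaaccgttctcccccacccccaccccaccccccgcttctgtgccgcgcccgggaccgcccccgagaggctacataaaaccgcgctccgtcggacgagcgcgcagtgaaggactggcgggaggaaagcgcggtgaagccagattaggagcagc

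RefSeq windows matched 8 of the 10 genes, with 14 windows of which 7 belong to Bdnf. A CRE core on either strand lay in 7 of the 14 windows, 1 for each of 7 genes (all but Ier5), and in 20.8% of all 32851 windows of this length. Nr4a1, Nr4a2 and Nr4a3 had 4 cores each, where 0.231% of all windows had 4 or more. The full CRE, in which 2 cores overlap, was found in Btg2, 166 bases upstream of the start, and in Dusp1, 143 bases upstream, against 1.79% of all windows. The CArG box bound by serum response factor was matched in 0 of the 8 genes and 1.63% of windows, and TATAAA on either strand in 13.6% of windows and, among the 8 genes, in Nr4a2 alone, there on the strand opposite to the gene. A match describes letters in this window, and no match says nothing about binding.

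The 3′ UTRs were read from GENCODE M21 for the AU-rich pentamer ATTTA and the nonamer TTATTTATT, on the transcript strand. ATTTA was present in 8 of the 10 genes, against 74.9% of 8079 genes of the rate table with a UTR of at least 100 bases. The densest were Dusp1, with 4 copies or 5.80 per kb (percentile 96.6), and Nr4a1, with 3 copies or 5.52 per kb (percentile 96.1), where the median gene had 1.42 per kb. Bdnf had 8 copies in a UTR of 2855 bases, and Arc and Ier2 had 0. The nonamer was found in Dusp1 alone among the 10 genes, and in 9.25% of genes. Its 2 sites, at chr17:26506158-26506187 and chr17:26505869-26505898 on the minus strand of GRCm38, are printed with flanks, the nonamer in capitals.
Dusp1 site 1: gagctggtccTTATTTATTtaacacccccc
Dusp1 site 2: gtttttacctTTATTTATTtttgtgtaggt

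These genes were among the fastest degraded RNAs of the wild-type cultures. All 8 lay above the 80th percentile of degradation rates in the wild-type 20 min library, between 80.5 and 99.8, and between 90.6 and 99.9 at 60 min. The median of the 8 genes was 9.56 times the library median at 20 min and 6.16 times at 60 min. In Fmr1-KO the median of the same genes was 2.60 and 3.11 times the library median, and 4 of 8 at 20 min and 5 of 8 at 60 min lay above the 80th percentile.

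Btg2, Ier2 and Dusp1 were at the top. Dusp1 (chr17:26505590-26562128, the full annotated span) was degraded at 2.19 and 1.58 in wild type and at 2.13 and 2.04 in Fmr1-KO, at 20 and 60 min. It lay above the 99th percentile in all 4 libraries, and its genotypes overlapped. Ier2 (chr8:84661331-84662852) had degradation rates of 2.21 and 0.908 in wild type and 3.48 and 1.07 in Fmr1-KO. Its 20 min values were the higher ones in both genotypes, and its percentiles ran from 97.1 to 99.6. Btg2 (chr1:134075170-134079120) had degradation rates of 3.77 in wild type and 2.28 and 0.887 in Fmr1-KO. The wild-type 60 min library listed 343005 for Btg2, beside a synthesis rate of 1.22044e+06 and a processing rate of 1.67297e+06, an estimate out of scale with the other 3 libraries. Degradation rates above 1000 were held by 12 genes in that library, 8 in Fmr1-KO at 60 min and 3 in each 20 min library.

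The NR4A receptors differed among themselves. Nr4a1 (chr15:101254269-101274795) had degradation rates of 1.63 and 0.796 in wild type and 0.604 and 0.290 in Fmr1-KO. Its wild-type libraries were both above its Fmr1-KO libraries, and its percentile went from 99.4 in wild type at 20 min to 66.4 in Fmr1-KO at 60 min. Nr4a2 (chr2:57106830-57124003) had the lowest degradation rates of the 8 genes in both 20 min libraries, 0.211 in wild type and 0.168 in Fmr1-KO, with 0.397 and 0.437 at 60 min. Nr4a3 (chr4:48045153-48086447) had 0.230 and 0.575 in wild type and 0.384 and 0.778 in Fmr1-KO. For Nr4a2 and Nr4a3 the 60 min value was above the 20 min value in each genotype and the genotypes overlapped.

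Bdnf and Ier5 were degraded more slowly than Btg2, Ier2 and Dusp1 in each library. Bdnf (chr2:109674700-109727007) was degraded at 0.496 and 0.530 in wild type and at 0.264 and 0.266 in Fmr1-KO. Its libraries lay close together within a genotype and did not overlap between genotypes, with percentiles of 95.7 and 94.4 in wild type and of 64.6 and 63.1 in Fmr1-KO. Ier5 (chr1:155096361-155099636) had 0.479 and 0.561 in wild type and 0.346 and 0.363 in Fmr1-KO, again without overlap. In the order of wild-type rates, Ier2, Dusp1 and Nr4a1 overlapped their neighbours across the labelling times, as did Bdnf, Ier5 and Nr4a3, and Nr4a3 and Nr4a2. The plot of the 3 rates by library shows these values.

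**Figure D1:**
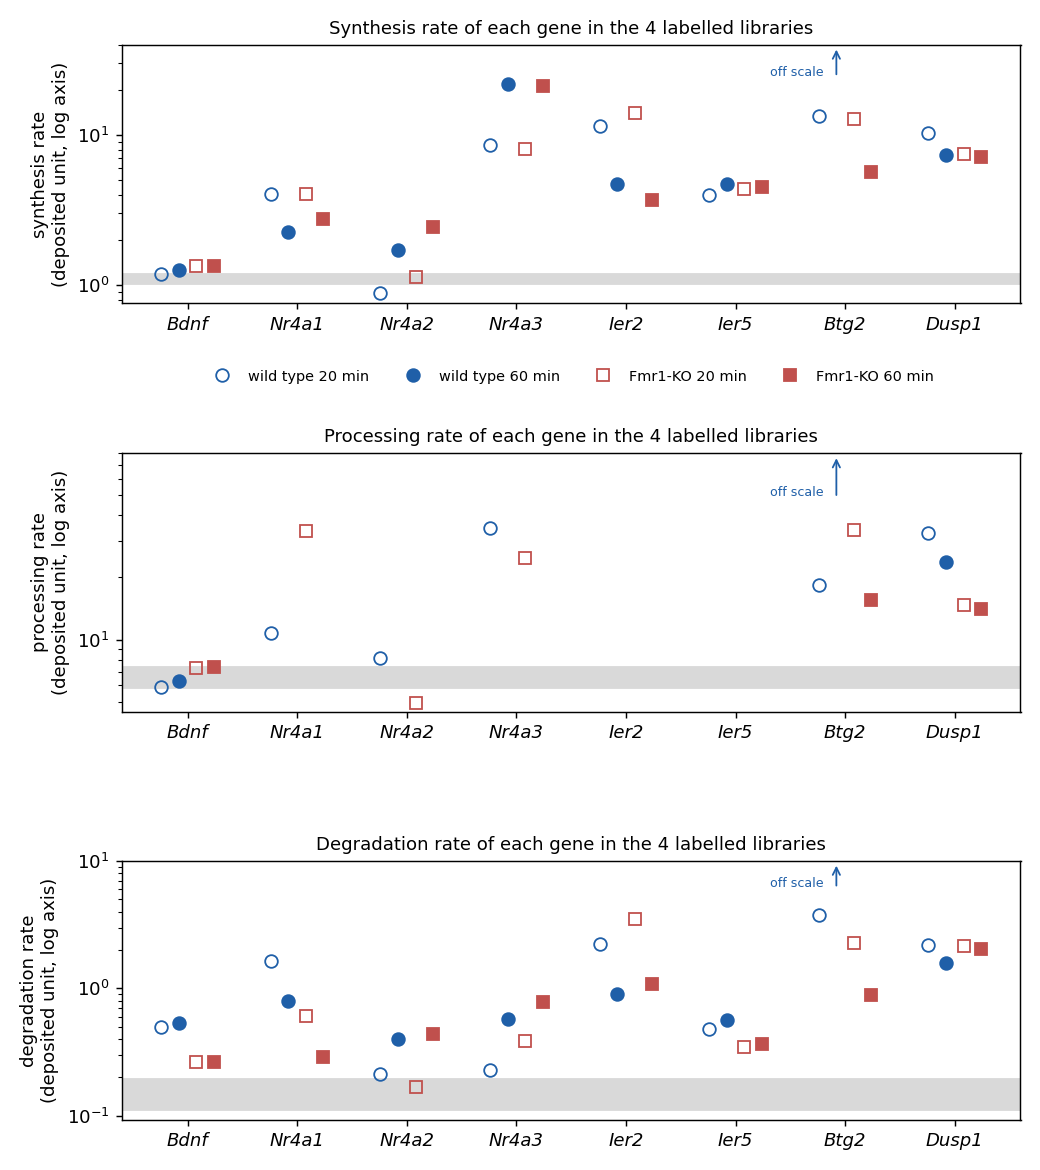
Synthesis, processing and degradation rates (log axes, units of the deposited table) of the 8 genes in the 4 labelled libraries, with the range of the library medians as a grey band. Degradation rates lie above the band for all 8 genes in wild type, and the wild-type 60 min values of Btg2 are off scale and marked by arrows.

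Synthesis rates were high for most of the group. Against library medians from 1.02 to 1.19, 6 of the 8 genes lay above the 90th percentile of synthesis rates at 20 min in either genotype, and 5 of 8 at 60 min. Nr4a3 was synthesised at 8.61 and 21.7 in wild type and 8.09 and 21.3 in Fmr1-KO. Its percentiles were 98.5 to 99.6, with the genotypes nearly equal at each time. Ier2 was at 11.5 and 4.73 in wild type and 14.0 and 3.71 in Fmr1-KO. Here the 20 min libraries were the high ones.

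Dusp1 was synthesised at 10.3 and 7.38 in wild type and 7.52 and 7.19 in Fmr1-KO, and Btg2 at 13.4, 12.7 and 5.68 outside the wild-type 60 min library. Ier5 was at 4.01 and 4.69 in wild type and 4.35 and 4.51 in Fmr1-KO. Neither Dusp1 nor Ier5 separated the genotypes. Nr4a1 was at 4.02 and 2.27 against 4.04 and 2.76, and Nr4a2 at 0.886 and 1.71 against 1.13 and 2.43. Bdnf was near the library median, at 1.18 and 1.26 in wild type and 1.33 and 1.34 in Fmr1-KO, with percentiles of 55.0 to 58.9. Those of Nr4a2 ran from 41.2 to 81.1, reaching the range of Nr4a1 at 60 min. In a bulk culture, fewer cells making an RNA and less RNA made per cell cannot be told apart.

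**Figure D2:**
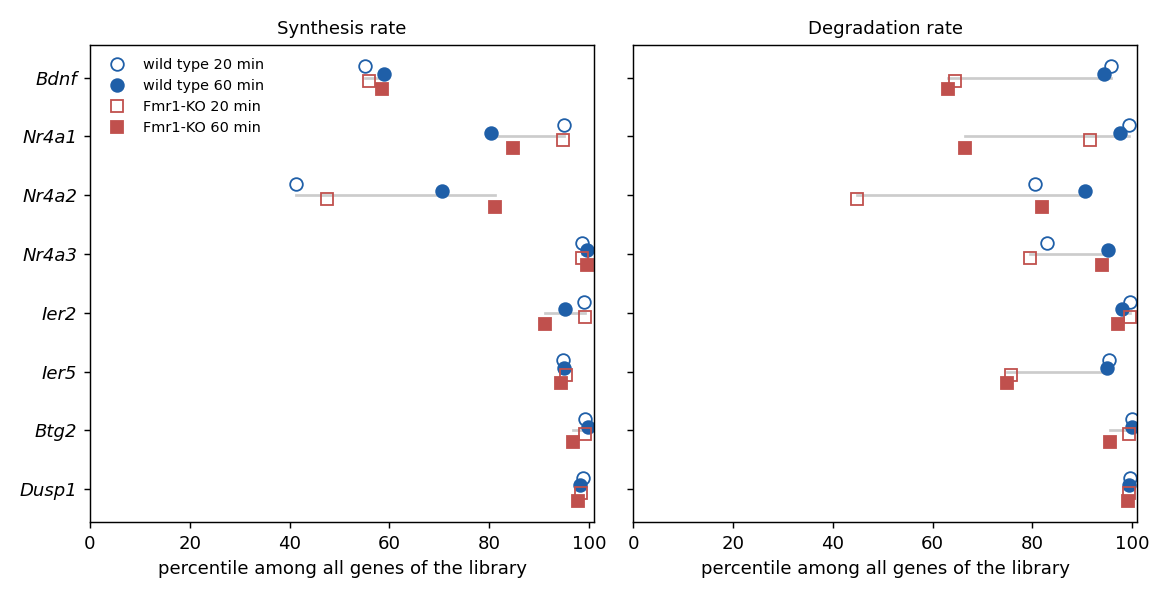
Percentile of each gene among all genes with a rate in the same library, for synthesis and degradation, with 1 point per library. Degradation percentiles of Bdnf, Ier5 and Nr4a1 are lower in both Fmr1-KO libraries than in wild type, while those of Dusp1 stay above 99.

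Processing rates were listed in all 4 libraries for 3 of the 8 genes. Dusp1 was processed at 32.8 and 23.6 in wild type and 14.7 and 14.1 in Fmr1-KO, both wild-type values being the higher. Bdnf was at 5.92 and 6.32 against 7.30 and 7.33, and Btg2 at 18.4, 33.8 and 15.5 outside the wild-type 60 min library. Bdnf was thus close to the library medians, which ran from 5.85 to 7.37. Nr4a1, Nr4a2 and Nr4a3 had a processing rate at 20 min and none at 60 min in both genotypes, a pattern shown by 193 genes of the table. At 20 min, Nr4a1 was processed at 10.7 in wild type and 33.5 in Fmr1-KO, Nr4a2 at 8.10 and 4.94, and Nr4a3 at 34.7 and 24.9. These are 1 library per genotype, so no test was made of them here. The authors' deposited table, whose filter is not stated, lists log2 changes of 1.73 for Nr4a1, -0.83 for Nr4a2 and -0.51 for Nr4a3, with limma adjusted p-values of 0.367, 0.656 and 0.787. Ier2 and Ier5 have 1 exon in the annotation and no processing rate.

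The comparison of Fmr1-KO with wild type asks whether loss of FMRP changes the metabolism of these RNAs. None of the 8 genes passed the limma threshold for degradation rate (adjusted p under 0.05 over all genes), and 1, Bdnf, had an unadjusted p under 0.05, at 0.0342. Over all 5716 genes tested, 2465 had a limma p below 0.05 before adjustment. After it 23.1% passed, 1174 higher and 147 lower in Fmr1-KO. The log2 changes of 5 of the 8 lay below 0 and those of Dusp1, Ier2 and Nr4a3 above it. Their median was -0.32 beside 0.65 over all genes, a description only, and -0.0933 with Btg2 and the other genes with a rate over 1000 left out. The Fmr1-KO libraries lay wholly below wild type for 4 of the 8, Bdnf, Nr4a1, Ier5 and Btg2, beside 16.5% of all genes, and wholly above for 0 of 8, beside 52.6%.

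Bdnf had the smallest adjusted p of the 8 genes. Its degradation rate was 0.513 ± 0.0238 (SD, n = 2) in wild type and 0.265 ± 0.00125 (SD, n = 2) in Fmr1-KO, 0.517 times the wild-type value, with log2 changes of -0.91 at 20 min and -0.99 at 60 min. The fitted change was -0.95 (SE 0.313, limma adjusted p = 0.0913), and the authors' deposited table gave -0.96 with an adjusted p of 0.0833. With labelling time as a replicate block the limma adjusted p of Bdnf was 0.0503. In these fits the difference did not pass the threshold over all genes. Since Bdnf synthesis divided by degradation was 2.38 at both times in wild type and 5.04 at both in Fmr1-KO, the labelling times are no independent repeat of that ratio, and the small SD does not measure its error. It passed as lower with a pseudocount (limma adjusted p = 0.0469), beside 4.27% of all genes, and after quantile normalization (0.0479), beside 4.13%.

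Nr4a1 went from 1.21 ± 0.588 (SD, n = 2) to 0.447 ± 0.222 (SD, n = 2). The log2 change was -1.43 at 20 min and -1.45 at 60 min, and the fit gave -1.44 (SE 0.590, limma adjusted p = 0.139). With labelling time as a replicate block, where 48.0% of genes passed and 9.76% passed as lower, Nr4a1 was the 1 gene of the 8 that passed, with a limma adjusted p of 0.0218. The authors' deposited table gave Nr4a1 a smaller change, -0.75, with an adjusted p of 0.394. The change of Nr4a1 ran from -1.97 to -0.91 as each library was left out in turn. Ier5 went from 0.520 ± 0.0577 (SD, n = 2) to 0.355 ± 0.0118 (SD, n = 2), by -0.55 on the log2 scale (SE 0.321, limma adjusted p = 0.260).

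Dusp1, Nr4a2, Nr4a3 and Ier2 did not pass, and their genotypes overlapped. Their log2 changes were 0.17 (SE 0.351) for Dusp1, -0.09 (SE 0.640) for Nr4a2, 0.59 (SE 0.646) for Nr4a3 and 0.45 (SE 0.785) for Ier2, with limma adjusted p-values of 0.745, 0.923, 0.523 and 0.693. Nr4a3 was higher in Fmr1-KO at both times, by 0.74 and 0.44, as was Ier2, by 0.65 and 0.24, and with labelling time as a replicate block their limma adjusted p-values were 0.152 and 0.255. These values do not show that the rates were alike. Btg2 had -9.64 (SE 5.61, limma adjusted p = 0.258), a value carried by the extreme wild-type 60 min estimate, and -1.41 without that library.

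Scaling matters for the direction. The library medians of degradation rate were higher in Fmr1-KO, and centring each library on its median lowered every log2 change by 0.86. After centring, all 8 genes lay below 0, beside 55.5% of all genes, and the median of the 8 was -1.18 beside -0.20. Dusp1, Ier2 and Nr4a3 thereby turned from above to below 0, at -0.69, -0.41 and -0.27. With centring and the replicate block together, Bdnf (limma adjusted p = 0.0299), Nr4a1 (0.0296) and Ier5 (0.0339) passed as lower, 3 of 8, beside 22.4% of all genes called lower and 36.2% called in either direction. With centring alone none of the 8 passed, Bdnf having a limma adjusted p of 0.0517.

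No difference in synthesis rate passed the test. By limma 0 of 5794 genes passed, 18 had an unadjusted p under 0.05, and 0 of the 8 genes were among those, each with an adjusted p of 1.00. The background percentage called was 0. The median log2 change of the 8 genes was 0.00 beside -0.03 over all genes. Bdnf changed by 0.13 (SE 0.378), with both Fmr1-KO values above wild type, as in 8.92% of all genes, and Nr4a2 by 0.43 (SE 0.590) with overlap. Btg2 lay wholly lower in Fmr1-KO, as in 9.20% of genes, at -8.90 (SE 5.18), and at -0.66 without the wild-type 60 min library. The authors' deposited table gave Btg2 a synthesis change of -0.38. Nr4a1, Nr4a3, Ier2, Ier5 and Dusp1 lay between -0.24 and 0.15. For Ier2 the fitted change was -0.03, where the authors' deposited table gave -1.08, also with an adjusted p of 1.00.

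Processing rates were tested in 5082 genes, of which 0 passed by limma (783 at an unadjusted p under 0.05), a background of 0%, and 0 of the 3 genes of the group passed. Dusp1 went from 28.2 ± 6.51 (SD, n = 2) to 14.4 ± 0.476 (SD, n = 2), with a log2 difference of -0.95 (SE 0.423, limma adjusted p = 0.359), without overlap, as in 35.1% of genes in that direction. With labelling time as a replicate block Dusp1 passed (limma adjusted p = 0.0485), beside 19.3% of genes called lower, and it did not with centring added (0.172). Synthesis divided by processing rate of Dusp1 was 0.312 at both times in wild type, and 0.510 and 0.511 in Fmr1-KO. For Bdnf it was 0.200 at both times in wild type and 0.182 at both in Fmr1-KO. The labelling times are thus no independent repeat of these ratios, and the spread between them does not measure their error. Bdnf differed by 0.26 (SE 0.398, limma adjusted p = 0.780), with both Fmr1-KO values above wild type, as in 11.5% of genes. Btg2 differed by -7.92 (SE 5.00, limma adjusted p = 0.499), and by 0.32 without the wild-type 60 min library. For its processing rate the authors' deposited table gave -0.51, with an adjusted p of 0.794.

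Synthesis divided by degradation rate stands for the amount of mature RNA under constant rates. For Bdnf it was 2.38 in both wild-type libraries and 5.04 in both Fmr1-KO libraries, 2.12-fold and 2.11-fold higher at 20 and 60 min. Nr4a1 had ratios of 2.47 and 2.85 in wild type and of 6.69 and 9.50 in Fmr1-KO, and for Ier5 8.35 at both times against 12.6 and 12.4. These 3 genes, with Btg2 (3.56 at both times against 5.59 and 6.40) and Nr4a2 (4.19 and 4.30 against 6.73 and 5.55), had the higher ratio in Fmr1-KO at both times.

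The other 3 had the lower ratio in Fmr1-KO. Nr4a3 had the highest ratio of the group, 37.5 and 37.8 in wild type and 21.1 and 27.4 in Fmr1-KO. Dusp1 was at 4.68 in both wild-type libraries and at 3.53 and 3.52 in Fmr1-KO, and Ier2 at 5.21 in both against 4.04 and 3.46. Over 5704 genes the ratio was higher in Fmr1-KO at both times in 32.1% and lower at both in 67.5%, with a median fold of 0.662 at 20 min and 0.648 at 60 min, beside 5 of 8 higher here. No test was made of a ratio.

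The ratio of Btg2 in the wild-type 60 min library was 3.56, as at 20 min, although each rate behind it was extreme there. In wild type the ratio was equal at both labelling times, within 0.001 log2 units, for 5 of the 8 genes, all but Nr4a1, Nr4a2 and Nr4a3. Those are the 3 genes with a processing rate at 20 min and none at 60 min. Of the 255 genes of the table with that pattern in wild type, 0 had an equal ratio. For the genes with an equal ratio, synthesis and degradation rates of the wild-type libraries therefore moved by the same factor between the times, and the labelling times give no separate estimate of their ratio.

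**Figure D3:**
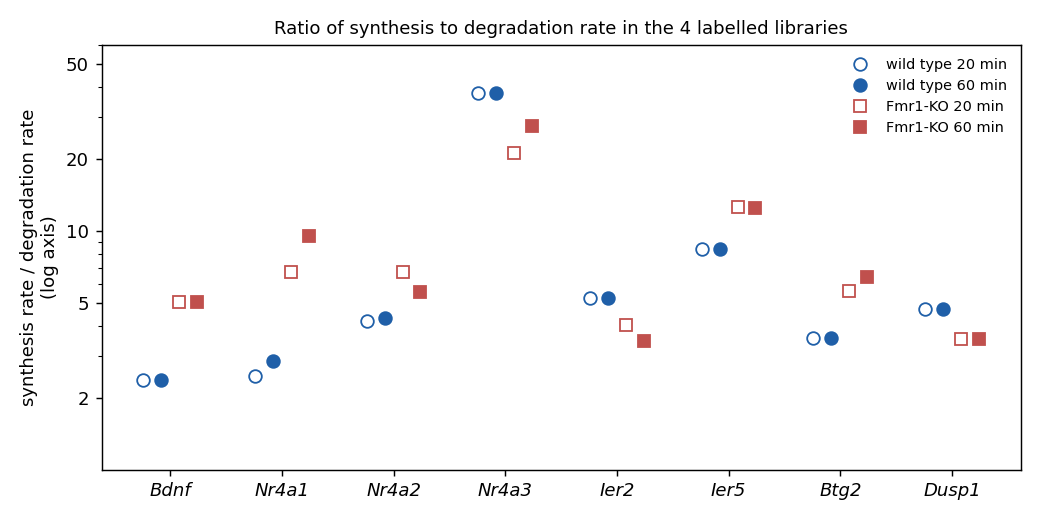
Ratio of synthesis to degradation rate (log axis) of the 8 genes in each labelled library. Bdnf lies at 2.38 in wild type and 5.04 in Fmr1-KO at both times, and Nr4a3, Ier2 and Dusp1 are the genes with lower ratios in Fmr1-KO.

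The estimated synthesis rate of several of these genes differed between the labelling times. In a limma fit with genotype and time as terms, 3 of the 8 genes passed, beside 18% of 5794 genes (5.75% higher and 12.3% lower at 60 min). Nr4a3 rose from 8.35 ± 0.369 (SD, n = 2 genotypes) at 20 min to 21.5 ± 0.272 (SD, n = 2) at 60 min, with a log2 difference of 1.37 (SE 0.210, limma adjusted p = 0.0384). It was 1.33 in wild type and 1.40 in Fmr1-KO.

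Nr4a2 rose too, from 1.01 ± 0.175 (SD, n = 2) to 2.07 ± 0.512 (SD, n = 2), by 1.02 (SE 0.213, limma adjusted p = 0.0484). Ier2 fell from 12.8 ± 1.78 (SD, n = 2) to 4.22 ± 0.721 (SD, n = 2), a change of -1.60 (SE 0.261, limma adjusted p = 0.0396), with -1.28 in wild type and -1.92 in Fmr1-KO. Nr4a1 changed by -0.69 (SE 0.220, limma adjusted p = 0.0947), lower at 60 min in both genotypes but short of the threshold. The paralogues Nr4a1 and Nr4a3 thus had time differences of opposite sign in both genotypes. Bdnf, at 0.05, and Ier5, at 0.14, had limma adjusted p-values of 0.870 and 0.647. Labelling time also marks a separate pull-down and library, and these cannot be told apart.

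**Figure D4:**
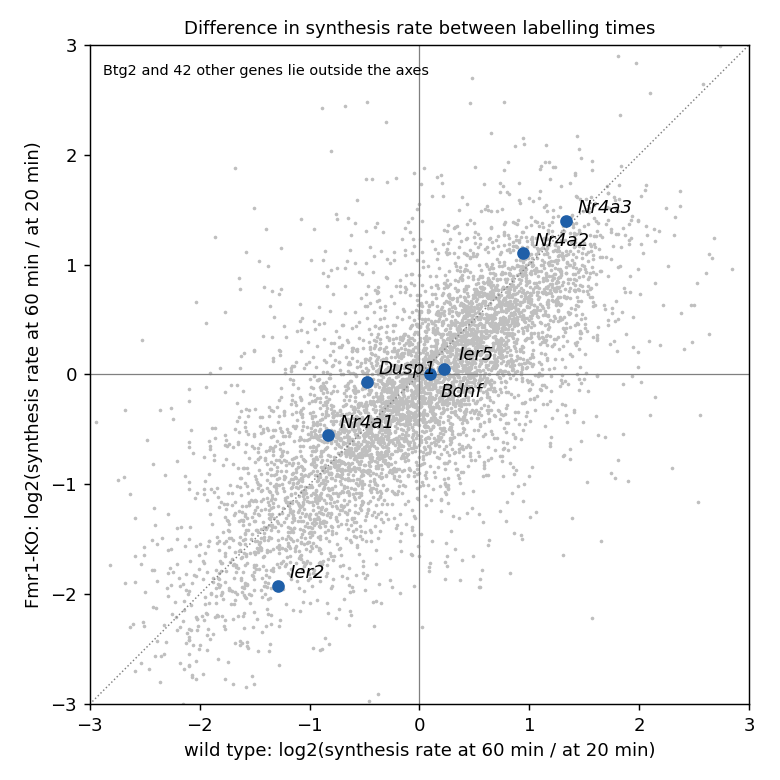
Log2 ratio of the 60 min to the 20 min synthesis rate in wild type (x axis) and Fmr1-KO (y axis) for 5751 genes in grey, with 7 of the genes described here in colour. Nr4a2 and Nr4a3 lie at upper right, Ier2 and Nr4a1 at lower left, and Btg2 and 42 other genes are outside the axes.

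Degradation rates of the same genes differed between times by similar amounts, 1.17 for Nr4a3, 1.14 for Nr4a2, -1.49 for Ier2 and -1.05 for Nr4a1. In wild type the synthesis and degradation differences were both -1.28 for Ier2 and both 1.33 for Nr4a3. For these genes the degradation difference is therefore no separate observation in wild type. By limma 0 of 5716 genes passed, a background of 0%, with 1185 at an unadjusted p under 0.05, and these 4 genes were among those, each with an adjusted p of 0.214. For processing rate 0 of the 3 genes passed, beside 22.8% of all genes.

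Other activity genes also had high degradation and synthesis percentiles. Of 50 other activity-regulated genes, 37 were listed and 28 had rates in wild type at 20 min. Over those 28 the median degradation percentile was 97.3 and the median synthesis percentile 97.5. In degradation rate 26 were tested and the median log2 change was -0.05 (-0.91 after centring). By limma 1 was higher and 2 were lower in Fmr1-KO, beside 20.5% and 2.57% of all genes. Homer1, whose short form uncouples postsynaptic scaffolds, fell by 2.15 on the log2 scale (SE 0.348, limma adjusted p = 0.0267), and Pcsk1, a prohormone convertase, fell by 4.34 (SE 0.703, limma adjusted p = 0.0267). Nptx2, a secreted pentraxin of excitatory synapses, rose by 2.16 (SE 0.358, limma adjusted p = 0.0274). After centring, the limma adjusted p-values were 0.0497 for Homer1, 0.0502 for Pcsk1 and 0.0815 for Nptx2. The next largest rise, 1.14 in Dusp4, a MAP kinase phosphatase related to Dusp1, did not pass (limma adjusted p = 0.0734), nor did the largest fall, in Klf6, which rests on an extreme wild-type 60 min estimate.

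Upstream signalling genes and decay factors had lower degradation percentiles. Of 23 calcium, CREB, SRF and MEF2 signalling genes, 11 were listed and 10 had rates in wild type at 20 min, with a median degradation percentile of 27.7, and 1 of 8 tested was higher in Fmr1-KO by limma and 0 lower, beside 23.1% of all genes called. Their median change was 1.16, and 0.30 after centring. Of 19 deadenylation and AU-rich element factors, 13 were listed and 12 had rates there, with a median degradation percentile of 63.9, and 0 of 9 tested passed by limma, again beside 23.1% of all genes. Their median change was -0.24, and -1.10 after centring. With labelling time, synthesis of 3 of the 26 other activity genes tested rose and of 0 fell, beside 5.75% and 12.3% of all genes: Sik1 by 1.62, Per1 by 1.42 and Fosl2 by 1.02 on the log2 scale, each by limma with an adjusted p under 0.05.

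By Euclidean distance over the 12 log2 rates, the genes most like Bdnf among 5076 were Stambpl1, Tgs1 and Zfp26, at distances of 1.39, 1.40 and 1.50. Those most like Dusp1 were Spry4, Arl4d and Trib1, at 2.60, 2.63 and 2.77, all 3 on the list of other activity genes. For Nr4a1, over the 8 synthesis and degradation rates of 5704 genes, they were Prmt6, Ppp1r3d and Pigm, at 1.18, 1.56 and 1.57. Arc, without rates, has no such neighbours.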

How the data were processed

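Per the labels' protocols, neurons were labelled with 5-EU, with fly and yeast RNA as spike-ins (10% by weight each). The submitters' processing notes name the build mm10 (GRCm38) and cutadapt, Bowtie2, TopHat2, HISAT2 and limma, with no roles. The authors deposited 1 table of linear rates (a value with no stated time unit) and, per the file headers, 3 limma tables of Fmr1-KO against wild type with log2 fold changes, p-values and 2 score columns, the deposited scores not being used here.

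For each rate, log2 values (no pseudocount) of genes whose rate was finite and above 0 in the 4 labelled libraries were fitted with limma 3.58.1 (R 4.3.3; lmFit, eBayes, two-sided, Benjamini-Hochberg over all genes, threshold 0.05), after a test on simulated data. The labelling times stood as the 2 replicates. The pairing by time comes from the labels: the 60 against 20 min differences of the genotypes correlated across genes (Spearman rho 0.735 for synthesis, 0.735 for processing, 0.652 for degradation), so blocked values are printed where they change a call.

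The genes, lists and rules were chosen with earlier results of these data known. Named beside the 10 genes and Fmr1 were the called genes and the 2 largest rises and falls in degradation rate of the activity list, and the 3 nearest genes of Bdnf, Nr4a1 and Dusp1. The labelling-time fit and the naming of its called genes were chosen after values were seen. Percentiles and ratios carry no test. Alternatives were the block, centring, quantile normalization, a filter at the 25th percentile, a pseudocount at the 10th percentile, a variance trend in eBayes, the authors' tables, a stricter threshold (0.01), rates over 1000 left out, and each library left out.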

Additional observations from a re-analysis of the deposited data

Results flagged for a closer look

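In several genes the difference between genotypes, or between labelling times, had opposite signs in the groups compared. Each comparison below rests on 1 library per genotype and time, and the difference between the effects was not tested. The synthesis rate of Ier2 was higher in Fmr1-KO by 0.29 log2 units at 20 min and lower at 60 min (-0.35), a difference of -0.64. That of Ier5 was 0.12 at 20 min and -0.05 at 60 min, a difference of -0.17. The degradation rate of Nr4a2 was -0.33 at 20 min and 0.14 at 60 min, a difference of 0.47, and that of Dusp1 was -0.04 and 0.37, a difference of 0.41.

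Btg2 gave 4 such results, all through the wild-type 60 min estimate. From 20 to 60 min its synthesis rate rose by 16.47 log2 units in wild type and fell by 1.16 in Fmr1-KO, a difference of -17.64. Its processing rate gave 16.47 and -1.12, a difference of -17.59, and its degradation rate gave 16.47 and -1.36, a difference of -17.83. Between genotypes, the processing rate of Btg2 changed by 0.88 at 20 min and -16.72 at 60 min, also a difference of -17.59.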

How the results depend on the processing

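With labelling time as a replicate block, 1300 genes passed for processing rate, Dusp1 the 1 gene of the group among them, and 2741 for degradation rate, with Nr4a1 as the 1 gene; the block changed no other call of the group. Centring left 92 genes for degradation rate with a group median of -1.18, and Dusp1 (-0.69), Ier2 (-0.41) and Nr4a3 (-0.27) changed sign. Centring with the replicate block called 688 genes for processing rate and 2070 for degradation rate, 3 of the group among the latter, with the same median of -1.18 and the same 3 changes of sign (-0.69, -0.41 and -0.27). Centring subtracts the shift of the library medians, which is what moves these values. Of the degradation calls, 1174 were higher and 147 lower without centring, and 32 and 60 with it.

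Quantile normalization left 596 genes for degradation rate, 360 higher and 236 lower, with 1 of the group and a median of -1.08, and there Dusp1 (-0.24), Ier2 (-0.0874) and Nr4a3 (-0.12) turned negative. For synthesis rate it gave a median of 0.14, with Ier2 at 0.14 and Nr4a3 at 0.23 on the positive side. The pseudocount called 1 gene of the group for degradation rate, Bdnf, among 1894 genes of which 244 were lower. At a threshold of 0.01, 0 genes passed for degradation rate. Without genes that had a rate over 1000, a setting added after seeing the data, the group median for degradation rate was -0.0933. The authors' deposited table called 2245 genes for degradation rate. The causes were not tested.

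Leaving out each library in turn leaves 1 library in that genotype, assumed to vary like the others. For synthesis rate 3 to 16 genes passed and 0 to 1 of the group; for processing rate 1 to 95 and 0 to 1, with a group median of -0.98 to 0.31; for degradation rate 1 to 1112 and 0 to 1, with a group median of -0.68 to -0.32. The gene of the group was Btg2 in each case. Degradation calls fell to 1 without the wild-type 60 min library, 129 without Fmr1-KO 60 min and 150 without Fmr1-KO 20 min. Log2 changes in synthesis rate ran from -0.99 to 0.93 for Ier2, -0.0808 to 0.15 for Ier5, -0.27 to 0.56 for Nr4a1, -0.12 to 0.98 for Nr4a2 and -0.76 to 0.64 for Nr4a3. In degradation rate they ran from -0.0746 to 1.25 for Nr4a3, -0.0714 to 0.40 for Dusp1, -0.40 to 1.30 for Ier2 and -0.78 to 0.60 for Nr4a2, and in processing rate from -16.16 to 0.32 for Btg2. Bdnf, Nr4a1, Ier5 and Btg2 kept a lower degradation rate in Fmr1-KO in each of these 4 fits. Their Fmr1-KO values all lay below their wild-type values, so leaving out 1 library could not change that sign.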
